A study of Mus musculus with 2 samples.

Results

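Chromatin accessibility was described in mouse liver at 10 genes of p53 signalling and cell cycle control, namely *Trp53*, *Mdm2*, *Cdkn1a*, *Ccng1*, *Btg2*, *Gadd45a*, *Gadd45b*, *Sesn2*, *Bbc3* and *Ccnd1*. The regions were taken by gene name alone, and the genes were picked with earlier results of these data known. Their members are the distinct regions of open chromatin whose closest transcription start site (TSS) carries one of these symbols. This gave 50 of 69549 regions. A region was called a promoter region when its centre lay within 1 kb of that TSS, which held for 11 of the 50 regions, among 14387 promoter regions in all. The other 39 regions are described apart. The members nearest to the limit were the *Cdkn1a* region at 895 bp and an *Mdm2* region at 897 bp on the inside, and a *Trp53* region at 1018 bp and a *Gadd45b* region at 1100 bp on the outside.

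The data compare livers of *Mettl3* flox/flox mice with those of hepatocyte-specific *Mettl3* knockout mice, called *Mettl3*-HKO (*Mettl3* flox/flox *Alb*-Cre+/-), by ATAC-seq, in which a transposase inserts sequencing adaptors wherever DNA is accessible. METTL3 is the catalytic subunit of the complex that writes N6-methyladenosine on RNA. Both groups were C57BL/6 mice on normal chow, 8 weeks old, and carried the floxed allele, so that the *Alb*-Cre transgene, driven by the albumin promoter of hepatocytes, is the difference between them, and no group with Cre and an intact *Mettl3* was analysed here. Liver of 4 mice was pooled into 1 library per group. There is therefore no replicate error. Each interval below is a 95% Clopper-Pearson interval that covers counting error only, and each difference is one between 2 libraries, not one shown between genotypes. Liver is a mixture of cells, and a lower count from fewer cells of a type cannot be told apart from less open chromatin per cell.

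Library totals were 52826202 reads for *Mettl3* flox/flox and 58038305 for *Mettl3*-HKO, of which 31.7% and 22.3% lay in the regions. On these totals the log2 ratio of *Mettl3*-HKO to *Mettl3* flox/flox had a median of −0.38 over all regions, −0.56 over promoter regions and −0.27 over the other 55162 regions. The ratio also moved with signal: the median of promoter regions was 0.15 in the lowest of 10 equal groups by mean signal and −0.65 in the highest. Ratios are given on the library totals unless a centred ratio is named, which is relative to the median of all regions and lies 0.38 higher. The deleted gene itself could not serve as a check of the labels. Its 3 listed regions lay at its promoter, in its 3′ UTR and in the neighbouring *Sall2*, none of them annotated in the floxed exons, and the promoter region had 566 and 392 reads (log2 ratio −0.66, interval −0.86 to −0.48).

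p53, the product of *Trp53*, is a transcription factor that is stabilised by DNA damage and other stress and binds pairs of a short sequence, the p53 half-site, near its target genes. MDM2, itself a p53 target, marks p53 for degradation and so closes a feedback loop. Targets such as p21 (*Cdkn1a*) hold cyclin-dependent kinases in check and stop the cell cycle, PUMA (*Bbc3*) drives apoptosis, and cyclin D1 (*Ccnd1*) works in the opposite direction by starting progress through G1. In the adult liver most hepatocytes are quiescent, and these genes are known for their part in regeneration and in the response to liver injury.

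The p53 half-site was searched by name on both strands of the RefSeq promoter windows, which hold 250 bases before and 50 after an annotated start on GRCm38.p6. Of the 10 genes, 9 had a window, all but *Ccnd1*, and there were 12 windows in all. The half-site was found in 5 of these 12 windows, of *Trp53*, *Mdm2*, *Ccng1*, *Gadd45a* and *Cdkn1a*, against 8.36% of all 32851 windows. The upstream bases of these 5 windows are printed below 5′ to 3′ along the gene, with the half-sites in capitals, so that the matched letters can be seen in place. Bases inside an annotated protein-coding gene were left out. The locations are chr11:69580251-69580347 (plus strand) for *Trp53*, chr10:117710759-117711008 (minus) for *Mdm2*, chr11:40755312-40755536 (minus) for *Ccng1*, chr6:67037408-67037657 (minus) for *Gadd45a* and chr17:29090729-29090978 (plus) for *Cdkn1a*.
Trp53: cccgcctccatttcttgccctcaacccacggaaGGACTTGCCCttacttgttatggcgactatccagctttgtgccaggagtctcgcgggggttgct
Mdm2: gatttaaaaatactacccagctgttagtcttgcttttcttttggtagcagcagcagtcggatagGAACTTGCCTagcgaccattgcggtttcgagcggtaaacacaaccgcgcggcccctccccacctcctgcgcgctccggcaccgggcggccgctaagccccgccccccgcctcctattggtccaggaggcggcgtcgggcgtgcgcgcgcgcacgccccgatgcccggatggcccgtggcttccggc
Ccng1: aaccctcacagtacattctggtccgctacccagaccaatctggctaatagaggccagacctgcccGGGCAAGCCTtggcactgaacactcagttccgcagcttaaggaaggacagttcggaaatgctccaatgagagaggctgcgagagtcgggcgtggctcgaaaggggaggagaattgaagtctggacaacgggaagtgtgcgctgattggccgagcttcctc
Gadd45a: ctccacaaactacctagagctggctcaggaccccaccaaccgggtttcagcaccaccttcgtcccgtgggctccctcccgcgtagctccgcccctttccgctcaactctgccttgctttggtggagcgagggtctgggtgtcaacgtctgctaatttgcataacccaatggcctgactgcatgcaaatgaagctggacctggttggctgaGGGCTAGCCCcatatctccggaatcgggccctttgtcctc
Cdkn1a: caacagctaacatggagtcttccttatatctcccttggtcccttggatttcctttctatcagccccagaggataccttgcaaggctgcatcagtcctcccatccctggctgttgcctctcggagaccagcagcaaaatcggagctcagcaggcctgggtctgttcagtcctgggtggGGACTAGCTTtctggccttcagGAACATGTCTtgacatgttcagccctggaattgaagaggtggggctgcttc

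The half-site began 75 bases before the RefSeq start in *Trp53*, 186 in *Mdm2*, 185 in *Ccng1* and 40 in *Gadd45a*. In *Cdkn1a* a pair of half-sites began 73 and 51 bases before the start. These windows of *Trp53*, *Mdm2*, *Ccng1* and *Gadd45a* overlapped the gene's own promoter region. The *Cdkn1a* window shown belongs to a start upstream of the one that the authors used, and 0 of its 300 bases lay in a member region. The other *Cdkn1a* window, at the authors' start, had 248 bases in the *Cdkn1a* region and held no half-site.

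The windows of *Btg2* and *Gadd45b* are shown because they held other motifs and these genes lay on opposite sides of the member ratios below. The lowest promoter ratio was that of *Cdkn1a*, not *Gadd45b*. Picked in this way, the pair cannot tie a motif to a direction, and such a link was not tested. The *Btg2* window (chr1:134079156-134079405, minus strand) held TGACGTCA, the palindrome bound by CREB and ATF factors, 166 bases before the start, and the *Gadd45b* window (chr10:80929841-80930072, plus strand) held TATAAA 46 bases before it. Both motifs are in capitals.
Btg2: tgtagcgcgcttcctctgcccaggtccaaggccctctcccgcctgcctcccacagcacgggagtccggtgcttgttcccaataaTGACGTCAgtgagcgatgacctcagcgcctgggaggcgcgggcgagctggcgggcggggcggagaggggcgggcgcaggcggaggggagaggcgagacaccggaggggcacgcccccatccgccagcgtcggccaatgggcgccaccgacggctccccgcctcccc
Gadd45b: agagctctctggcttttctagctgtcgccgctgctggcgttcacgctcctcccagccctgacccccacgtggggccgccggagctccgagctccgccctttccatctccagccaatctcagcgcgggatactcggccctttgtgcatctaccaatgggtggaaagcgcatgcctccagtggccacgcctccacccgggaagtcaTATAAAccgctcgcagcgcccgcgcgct

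TGACGTCA was found in 1.79% of all windows and in 1 of the 12 member windows. TATAAA was found in 13.6% of all windows and in 2 member windows, those of *Gadd45b* and, on the opposite strand, *Trp53*. CCAAT was found in 8 and GGGCGG in 9 of the 12, against 37.4% and 35.7% of all windows. TTTNNCGC, a loose form of the E2F motif, was found in 1 (*Mdm2*, as TTTACCGC, 5.17% of all). TGANTCA, a loose form of the AP-1 motif, was found in 0 (7.81% of all). A match is a description of letters and not of a bound site.

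On the library totals, the promoter regions of these genes were mostly less open in the *Mettl3*-HKO library, though by less than the median promoter. Their median log2 ratio was −0.35, with a range of −0.99 to 0.53, beside −0.56 for all promoter regions. Summed over the 11 regions there were 9581 reads in *Mettl3* flox/flox and 7888 in *Mettl3*-HKO (log2 ratio −0.42, interval −0.46 to −0.37). Regions with many reads weigh most in this and the later sums. None of the 11 reached a 2-fold difference: 0 were at least 2-fold lower, where 16.3% of all promoter regions were, and 0 at least 2-fold higher, where 4.07% were. By the exact binomial test with Benjamini-Hochberg adjustment over all regions, 7 of 11 were lower, where 71.7% of all promoter regions were, and 2 were higher, where 7.68% were. The 2 higher regions, of *Btg2* and of *Mdm2* at 897 bp, the latter listed through the *Mettl3*-HKO peak alone, were also the ones above 0, a share of 18.2% beside 16.1% of all promoters. Relative to the median of all regions, 6 of 11 lay above 0, beside 33.6% of all promoter regions, and again 0 were 2-fold lower (5% of all) and 0 were 2-fold higher (6.9% of all). A peak was called only in *Mettl3* flox/flox at 0 of 11 (8.26% of all) and only in *Mettl3*-HKO at 1 (8.4% of all). A region with a peak in 1 library is listed because of that library, which tilts its ratio that way. The ratios, intervals and binomial results of such regions, here and below, are therefore given as a description.

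**Figure D1:**
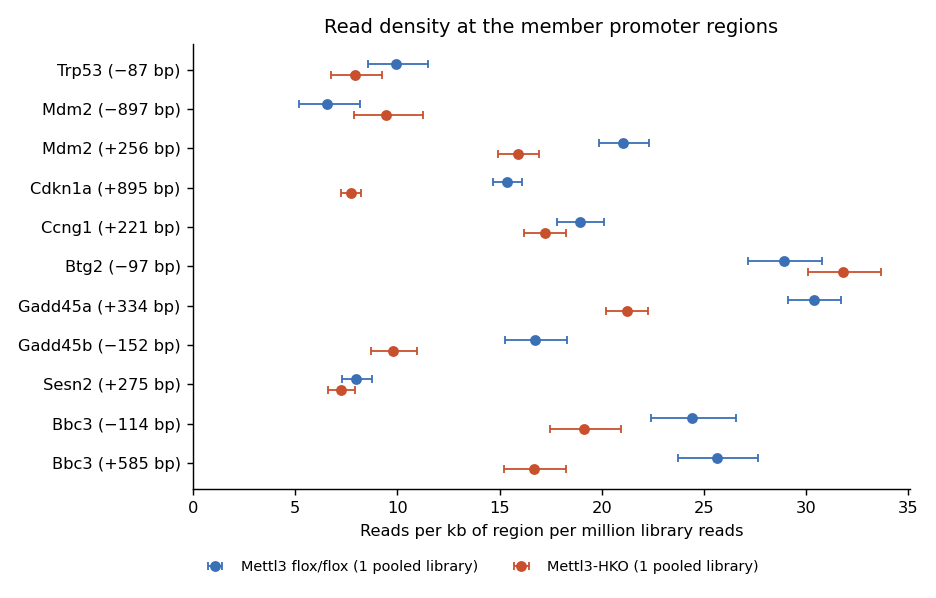
Read density (RPKM: reads per kb of region, scaled by the library total, horizontal axis) in each of the 11 member promoter regions, with the distance of the region centre from the TSS beside the gene name. Points are the value of the 1 pooled library of each group and bars are 95% Poisson intervals of the count. *Cdkn1a* has the lowest ratio of *Mettl3*-HKO to *Mettl3* flox/flox among the 11, 7.72 against 15.4, while *Btg2* and the distal *Mdm2* region are the ones with the *Mettl3*-HKO point on the right.

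*Trp53* encodes p53 itself. Its promoter region, at chr11:69580140-69580491 and centred 87 bp upstream of the TSS, had 185 reads in *Mettl3* flox/flox and 162 in *Mettl3*-HKO. The log2 ratio was −0.33 with an interval of −0.64 to −0.02, and it passed to 0.05 when centred on all regions. The adjusted binomial p was 0.053, so that the libraries did not differ past the threshold here. Its read density, in reads per kb of region scaled by the library total (RPKM), was 9.95 and 7.93. The region also covers 111 bp of *Wrap53*, the gene that starts next to *Trp53* on the opposite strand, and its reads cannot be assigned to one of these genes. The second *Trp53* region, 1018 bp downstream in intron 1, had 296 and 235 reads (−0.47, −0.72 to −0.22). Both libraries had a peak in both regions, and with centred ratios of 0.05 and −0.09 neither was far from the median of all regions.

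*Mdm2*, the negative regulator of p53, had promoter regions that pointed in opposite directions. The one over the start, at chr10:117709984-117711020, had 1154 reads in *Mettl3* flox/flox and 957 in *Mettl3*-HKO, a log2 ratio of −0.41 (−0.53 to −0.28), or −0.03 when centred on all regions, where it no longer passed the binomial threshold. The smaller one, centred 897 bp upstream at chr10:117711543-117711768, had 78 and 124 reads and a log2 ratio of 0.53 (0.11 to 0.96). A peak was called in this upstream region in the *Mettl3*-HKO library and not in *Mettl3* flox/flox. Its centred ratio was 0.90. The half-site printed for *Mdm2* lies in the region over the start, not in the upstream region. Farther upstream, a region at 7086 bp had 212 and 266 reads (0.19, −0.07 to 0.46, but called higher at 0.57 when centred on all regions) and one at 7834 bp had 177 and 141 (−0.46, −0.79 to −0.14, a call that was lost at −0.08 when centred on all regions). The *Mdm2* regions thus had ratios on both sides of 0, of which the one at 897 bp was listed through *Mettl3*-HKO alone. Summed over all 4 the log2 ratio was −0.26 (−0.36 to −0.16). Most of that sum came from the region over the start, with 1154 of 1621 reads in *Mettl3* flox/flox.

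*Cdkn1a* encodes p21, the inhibitor of cyclin-dependent kinases through which p53 halts the cell cycle. It had 1 region, chr17:29093571-29095765, which at 2195 bp was the longest of the 50 and ran from just upstream of the authors' TSS into intron 1. The *Mettl3* flox/flox library had 1784 reads there and the *Mettl3*-HKO library 984. The log2 ratio of −0.99 (−1.11 to −0.88) was the lowest of the 11 member promoters, just short of 2-fold. It lay above only 16.7% of promoter regions, and it kept its sign when centred on all regions (−0.62) and on promoters of like signal, those in its own one of the 10 groups (−0.35). Peak summits within the region ran from 36 bp upstream to 1740 bp downstream of the TSS, so its centre, 895 bp downstream, need not mark its strongest point. The 37 other regions within 250 kb had a median of −0.56.

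*Ccng1*, which encodes cyclin G1 and is a p53 target, and *Sesn2*, which encodes the stress sensor sestrin 2, had nearly equal counts in the libraries. The *Ccng1* promoter region at chr11:40754554-40755626 had 1073 reads in *Mettl3* flox/flox and 1072 in *Mettl3*-HKO (log2 ratio −0.14, −0.26 to −0.01). The *Sesn2* promoter region at chr4:132509663-132510789 had 476 and 474 reads (−0.14, −0.33 to 0.04, adjusted binomial p = 0.17). The ratios ranked above 79.7% and 79.6% of promoter regions, and both changed sign to 0.24 when centred on all regions. There both were called higher (adjusted binomial p = 0.000354 for *Ccng1* and 0.0222 for *Sesn2*), while on the library totals *Ccng1* was called lower (adjusted binomial p = 0.043). Away from the promoters, a *Ccng1* region 8289 bp upstream fell from 63 to 21 reads (−1.68, −2.51 to −0.99), with a peak only in *Mettl3* flox/flox, and one at 20322 bp upstream had 21 and 24. *Sesn2* had 3 regions upstream of its promoter, with 270 and 243 reads at 5153 bp, 154 and 89 at 4452 bp (−0.92, −1.32 to −0.54) and 102 and 105 at 3513 bp. The middle one of these 3 was the one without a peak in *Mettl3*-HKO, and its lower call was lost when scaled to reads in regions (−0.41).

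*Btg2*, an antiproliferative gene that p53 and growth factors induce, was the one gene among the 10 with every region above 0. Its promoter region at chr1:134078884-134079551 had 1021 reads in *Mettl3* flox/flox and 1234 in *Mettl3*-HKO, a log2 ratio of 0.14 (0.02 to 0.26), above 87.0% of promoter regions. The region at chr1:134074014-134075346, 4440 bp downstream of the TSS and running from the 3′ UTR past the end of the gene, had 383 and 1503 reads. This is a log2 ratio of 1.83 (1.67 to 2.00), the highest of the 50 member regions, and a rise in density from 5.44 to 19.4 RPKM. It lay above 95.1% of all regions outside promoters and above 0 under each scaling tried, at 2.21 when centred on all regions. A peak was called there only in *Mettl3*-HKO. The regions at 7296 bp and 13596 bp downstream had 326 and 381 reads (0.09, −0.13 to 0.31) and 466 and 552 reads (0.11, −0.07 to 0.29). These passed the binomial threshold not on the library totals but under each of the 4 other scalings, at 0.47 and 0.49 when centred on all regions (adjusted binomial p = 6.47e-05 and 4.34e-07). Around these, the 33 regions within 250 kb that belong to other genes had a median of −0.67, of which 9 were at least 2-fold lower and 1 at least 2-fold higher. Of all promoter regions 16.3% were 2-fold lower and 4.07% higher, and of all other regions 18.8% and 15.6%.

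*Gadd45a* and *Gadd45b* encode small stress proteins that bind PCNA, p21 and kinases of the MAPK pathway. *Gadd45a* is a classic p53 target, while *Gadd45b* is known for its induction by NF-κB and in regenerating liver. The *Gadd45a* promoter region at chr6:67036409-67037735 had the most reads of the 50, with 2131 in *Mettl3* flox/flox and 1634 in *Mettl3*-HKO (log2 ratio −0.52, −0.61 to −0.43). It ranked above 54.3% of promoters, and its ratio was above 0, at 0.13, only against promoters of like signal, where it was called higher. Its lower call was lost when scaled to reads in regions (−0.0071). The region overlaps the long noncoding RNA gene *E230016M11Rik* as well, and its reads cannot be assigned to one of these genes.

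The *Gadd45b* promoter region at chr10:80929656-80930187 had 470 and 302 reads (−0.77, −0.99 to −0.56), above 31.0% of promoters. All 5 *Gadd45b* regions were below 0, also when centred on all regions, and the 4 outside the promoter were more than 2-fold lower on the library totals. Of these 4, the region at 10717 bp was short of 2-fold when centred on all regions (−0.89), and those at 1100 and 10717 bp were against regions of like signal (−0.73 and −0.66). These had 453 and 187 reads at 1100 bp upstream (−1.41), 203 and 59 at 3651 bp downstream (−1.90, −2.36 to −1.49), 200 and 77 at 9775 bp (−1.50) and 301 and 137 at 10717 bp (−1.27). The region at 3651 bp had a peak only in *Mettl3* flox/flox. Over all 5 the sum was 1627 and 762 reads, a log2 ratio of −1.23 (−1.36 to −1.11). It pools separately called regions with ratios from −1.90 to −0.77, the lowest of them listed through *Mettl3* flox/flox alone. The 52 other regions within 250 kb had a median of −0.70, and 14 of them were at least 2-fold lower, beside 16.3% of all promoter regions and 18.8% of all others. The 18 promoter regions among these 52 had a median of −0.48, above that of all promoters.

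The 5 *Gadd45a* regions outside the promoter lay 32034 to 52323 bp upstream and split by position. The farthest pair had 80 and 37 reads (−1.23, −1.85 to −0.67) and 131 and 45 reads (−1.66, −2.20 to −1.18). The nearest, in an intron of *E230016M11Rik*, had 33 and 67 (0.86, 0.26 to 1.53). The remaining regions had few reads and calls that depended on the scaling. The one at 39134 bp, with 8 and 19 reads and a peak only in *Mettl3*-HKO, had an interval of −0.15 to 2.51 and was called higher when centred on all regions (1.39, adjusted binomial p = 0.0215). The one at 50137 bp, with 24 and 24 reads and a peak only in *Mettl3*-HKO, was called lower only against regions of like signal (adjusted binomial p = 0.0388).

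*Bbc3* encodes PUMA, the BH3-only protein that couples p53 to apoptosis. Its promoter regions had 547 and 471 reads at 114 bp upstream (chr7:16309291-16309714; log2 ratio −0.35, −0.53 to −0.17) and 662 and 474 reads at 585 bp downstream (chr7:16309958-16310446; −0.62, −0.79 to −0.45). The lower call at 585 bp was lost when scaled to reads in regions (−0.11) and against promoters of like signal (0.037). At 114 bp it was lost when centred on all regions (0.026), and against promoters of like signal that region was called higher (0.30). The 7 others, from 14035 bp upstream to 16773 bp downstream, had ratios of −0.40 to −0.08 and summed to 2174 and 2056 reads (−0.22, −0.30 to −0.13). Those at 11051 and 16773 bp downstream lie within the gene *Sae1* and are assigned to *Bbc3* by the closest TSS alone. All 9 *Bbc3* regions were thus below 0 on the library totals, while 7 of them were above 0 when centred on all regions, and each had a peak in both libraries. They formed the narrowest spread among the genes with at least 3 regions. The 30 regions of other genes within 250 kb had a median of 0.27, of which 0 were at least 2-fold lower and 9 at least 2-fold higher. Among all promoter regions 16.3% were 2-fold lower and 4.07% higher, and among all other regions 18.8% and 15.6%.

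*Ccnd1* encodes cyclin D1, which activates CDK4 and CDK6 and is the one member that drives the cycle. It had no region centred within 1 kb of its TSS and so no promoter value. It had 12 other regions, a number that 1.17% of genes reach. The nearest were 1732 bp upstream, with 139 and 145 reads (−0.08, −0.42 to 0.27), and 2173 bp downstream, with 92 and 55 (−0.87, −1.39 to −0.38) and a peak only in *Mettl3* flox/flox. The latter call was lost when centred on all regions (−0.49, adjusted binomial p = 0.0734). Over the 12 regions the sum was 1808 reads in *Mettl3* flox/flox and 997 in *Mettl3*-HKO, a log2 ratio of −0.99 (−1.11 to −0.88). It pools separately called regions with ratios from −2.82 to 1.69. Those at 109357, 101226, 69285 and 2173 bp were listed through *Mettl3* flox/flox alone, and those at 86214 and 85762 bp through *Mettl3*-HKO alone. The sum is thus a description and not a shared change. Summed over the 5 regions within 50 kb the ratio was −0.75 (−0.90 to −0.60). They included an intronic region with 143 and 77 reads and one at the 3′ end, overlapping *LTO1*, with 441 and 236 (−1.03, −1.27 to −0.81).

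The 7 regions between 69285 and 109357 bp upstream of *Ccnd1* ranged from −2.82 to 1.69. The lowest ratio of any member was here, with 256 and 39 reads at 101226 bp upstream, or from 11.9 to 1.66 RPKM (log2 ratio −2.82, −3.38 to −2.36). Beside it the regions at 109357 bp (97 and 17 reads, −2.58), 103763 bp (361 and 173, −1.19) and 69285 bp (99 and 28, −1.92) were lower as well. Of these 4, the region at 103763 bp had a peak in both libraries and the others only in *Mettl3* flox/flox. Between them lay 3 regions with ratios above 0, at 91057 bp (41 and 51, 0.17, −0.44 to 0.81), 86214 bp (10 and 38, 1.69, 0.76 to 2.96) and 85762 bp (27 and 50, 0.73, 0.05 to 1.49). These 3 had few reads, 10 to 41 in *Mettl3* flox/flox, and those at 86214 and 85762 bp had a peak only in *Mettl3*-HKO. Against regions of like signal the ratios at 86214 and 85762 bp were 0.83 and 0.68 and no longer passed the threshold (adjusted binomial p = 0.109 and 0.0694). The assignment to *Ccnd1* rests on the closest TSS alone.

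**Figure D2:**
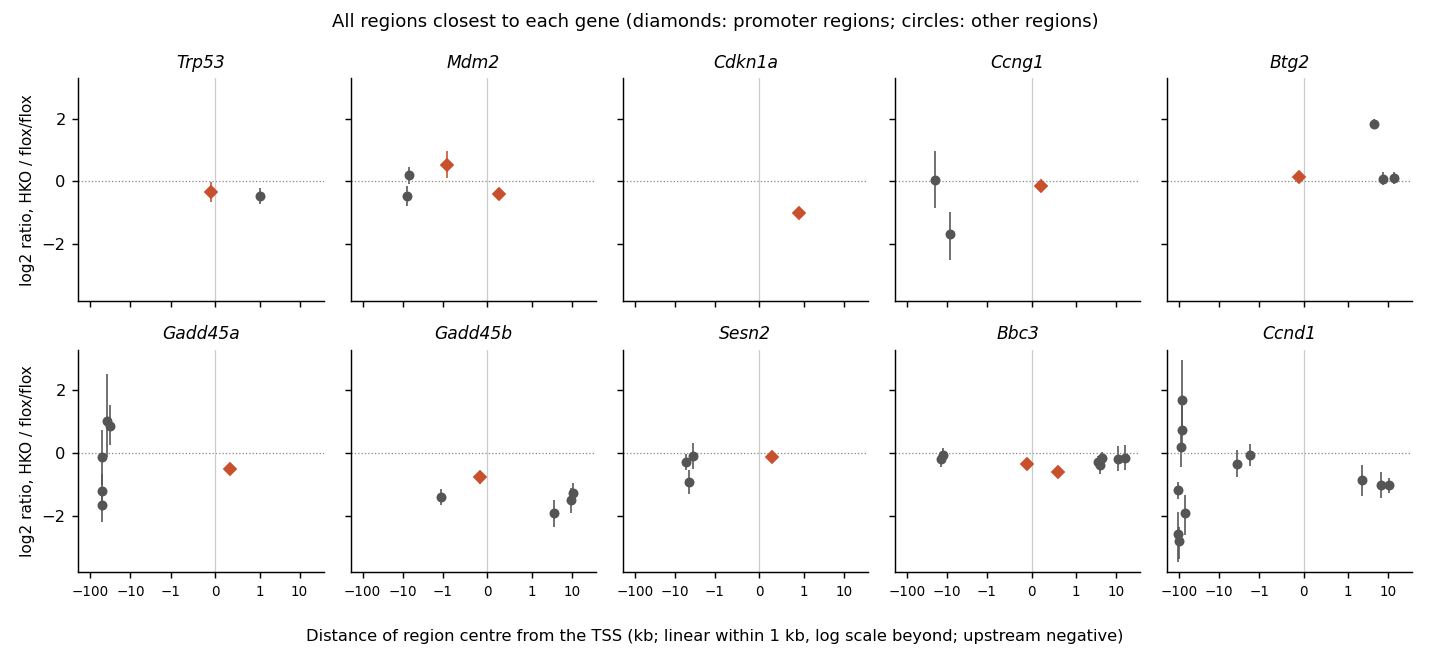
log2 ratio, *Mettl3*-HKO to *Mettl3* flox/flox (vertical axis), of all 50 member regions by the distance of the region centre from the TSS (horizontal axis in kb, linear within 1 kb and logarithmic beyond, upstream negative). Diamonds are the 11 promoter regions, circles the 39 others, and bars 95% Clopper-Pearson intervals. On these library totals *Btg2* has every region above 0, and *Trp53*, *Cdkn1a*, *Gadd45b*, *Sesn2* and *Bbc3* have every region below 0. *Ccnd1* spreads from −2.82 to 1.69 at its far upstream regions.

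Over the 39 regions outside promoters the median log2 ratio was −0.29, next to −0.27 for all such regions. Of these, 13 were at least 2-fold lower, or 33.3% beside 18.8% of all regions outside promoters, and they belonged to *Ccnd1*, *Gadd45b*, *Gadd45a* and *Ccng1*. Regions at least 2-fold higher numbered 3, or 7.69% beside 15.6%, of *Btg2*, *Ccnd1* and *Gadd45a*. All 3 were listed through a peak in *Mettl3*-HKO alone. Among the 13 lower ones, those of *Ccng1*, of *Gadd45b* at 3651 bp and of *Ccnd1* at 109357, 101226 and 69285 bp were listed through *Mettl3* flox/flox alone. These counts are therefore a description. Relative to the median of all regions, 8 were 2-fold lower (8.65% of all) and 5 were 2-fold higher (23.5% of all), while 21 of 39 lay above 0 (54.3% of all). On library totals 10 of 39 lay above 0, beside 40.2% of all. By the binomial test 20 were lower (41.5% of all) and 4 higher (23.6% of all). The 20 include every one of the 39 with a peak only in *Mettl3* flox/flox. The 4 include *Btg2* at 4440 bp and *Ccnd1* at 86214 and 85762 bp, which had a peak only in *Mettl3*-HKO. Listing favoured the direction of those calls. Regions of 1 gene share a locus and are not independent of each other. A peak was called only in *Mettl3* flox/flox in 7 of 39 (19.1% of all) and only in *Mettl3*-HKO in 6 (24.9% of all).

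**Figure D3:**
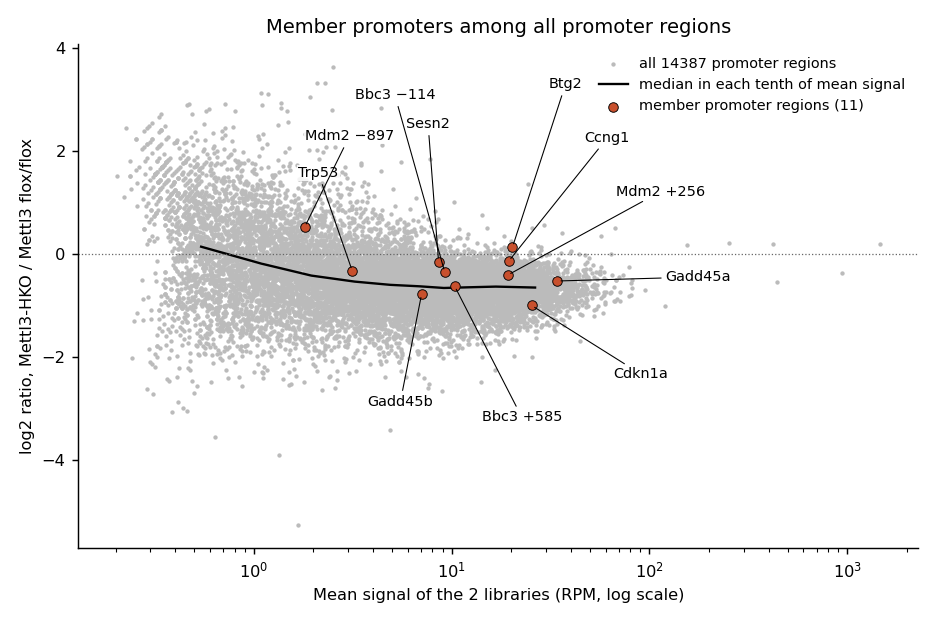
log2 ratio (vertical axis) against the mean signal of the 2 libraries (RPM, reads scaled by the library total, log scale) for all 14387 promoter regions in grey, with the 11 member promoter regions in orange and the median of each of 10 signal groups as a line. The line falls from 0.15 to −0.65. *Cdkn1a* and *Gadd45b* are the members below it, *Bbc3* at 585 bp sits nearly on it, and *Mdm2* at 897 bp and *Btg2* lie farthest above.

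The direction of several promoters depended on how the libraries were scaled. Centring on all regions moves every ratio up by 0.38, TMM scaling by 0.39 and scaling to the reads that lie in regions by 0.51. The member median became 0.026, 0.040 and 0.16, where that of all promoters became −0.19, −0.17 and −0.05. *Trp53*, *Ccng1*, *Sesn2* and the upstream *Bbc3* promoter were below 0 on library totals and above 0 under each of these 3 scalings, and the *Mdm2* region over the start was above 0 only when scaled to reads in regions or centred on promoters of like signal. *Cdkn1a* and *Gadd45b* stayed below 0, and *Btg2* and the upstream *Mdm2* region above 0, under all 5 scalings. The binomial call of the *Gadd45b* promoter was lost against promoters of like signal, where its ratio was −0.15 (adjusted binomial p = 0.222). Against promoters of like signal 9 of 11 were above 0, with a median of 0.22.

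**Figure D4:**
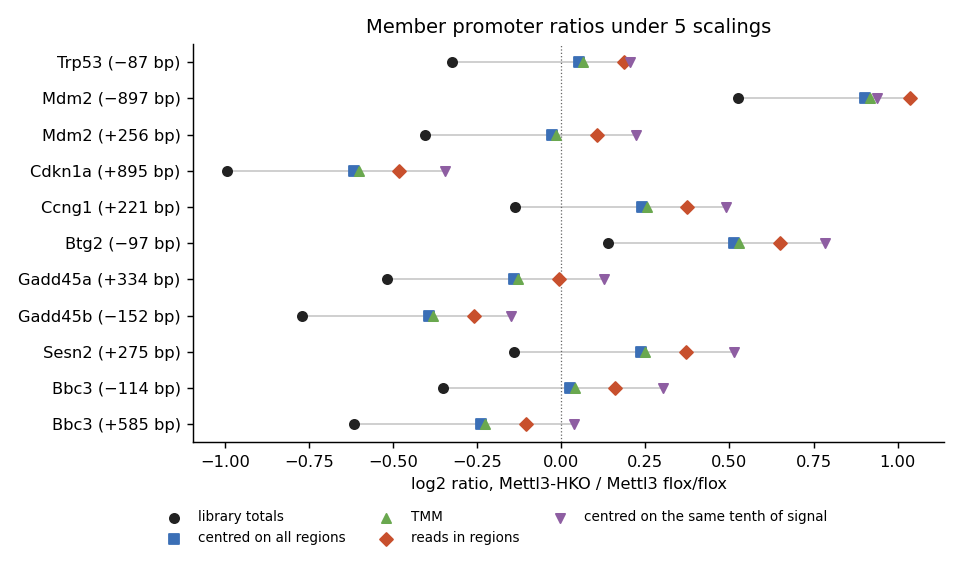
log2 ratio (horizontal axis) of the 11 member promoter regions under 5 scalings: library totals, centred on all regions, TMM, reads in regions, and centred on promoter regions of like signal. Each symbol is 1 scaling and the grey line joins those of 1 region. *Cdkn1a* and *Gadd45b* remain left of 0 and *Btg2* and *Mdm2* at 897 bp right of it throughout.

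Lists of related genes were described by the strongest promoter region of each gene. Of 28 other p53 targets, 24 had a promoter region, with a median log2 ratio of −0.50; 2 were at least 2-fold lower, 20 lay between and 2 were higher by 2-fold or more. Of all promoter regions, 16.3% were past 2-fold on the lower and 4.07% on the higher side, or 5% and 6.9% when centred on all regions. These shares are the background for this and the following lists. They count every promoter region, while the lists hold the strongest of each gene, so the match is not exact. Of the 24 p53 targets, 2 were lower and 3 higher when centred on all regions, the third higher one being *Tnfrsf10b* (32 and 62 reads, centred ratio 1.17). The lower genes were *Perp*, a desmosomal effector of p53 apoptosis, with 2149 and 593 reads (−1.99, −2.13 to −1.86), and *Apaf1*, the core of the apoptosome, with 1375 and 541 (−1.48, −1.63 to −1.34). A second *Apaf1* promoter region, centred 663 bp from the TSS, had 64 and 63 reads (−0.16, −0.68 to 0.37). The higher ones were *Phlda3*, an inhibitor of AKT, with 51 and 241 reads (2.08, 1.66 to 2.57), and *Eda2r*, a receptor of the TNF family, with 118 and 299 (1.20, 0.89 to 1.53). A second *Eda2r* promoter region, with 93 and 267 reads, gave 1.38 (1.04 to 1.74), while its region 54393 bp upstream had 202 and 103. The p53 targets thus spread to both sides, from −1.99 to 2.08, and the 11 member promoters lay inside that range.

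Of 16 regulators of p53, 11 had a promoter region, with a median of −0.60. *Chek1*, the checkpoint kinase, had 825 and 408 reads (−1.15) and *Hipk2*, a kinase of p53, 821 and 441 (−1.03), and centred on all regions 0 of the 11 were past 2-fold. None was at least 2-fold higher, and the highest was *Cdkn2a*, whose ARF product inhibits MDM2, with 173 and 221 reads (0.22, −0.08 to 0.51).

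The paralogs of the members gave a median of −0.50 over the 12 of 16 with a promoter region. The *Mdm2* paralog *Mdm4* was at −0.60, the *Ccng1* paralog *Ccng2* at −0.52, *Gadd45g* at −0.12 and *Ccnd3* at −0.38. *Cdkn1b* and *Cdkn1c*, which encode p27 and p57, were at −0.49 and at 0.63, the latter with 63 and 108 reads (0.18 to 1.11). Of the sestrins, *Sesn1* was at −0.51 and *Sesn3* had 2887 and 1367 reads (−1.21, −1.31 to −1.12), the only paralog past 2-fold on the library totals. Centred on all regions it was at −0.84, and *Cdkn1c*, at 1.01, was the one past 2-fold. In the family of *Btg2*, *Btg1* was at −0.31, *Btg3* at −0.20, *Tob1* at −0.74 and *Tob2* at −0.89, all below 0 on the library totals where *Btg2* was above, although *Btg1* and *Btg3* were at 0.07 and 0.17 when centred on all regions. *Trp63* and *Ccnd2* had regions but none at the promoter, and *Trp73* and *Btg4* had no region under their symbols.

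The cell cycle engine was described with 3 lists. Cyclins, CDKs and CDC25 phosphatases had a median of −0.43 over 14 promoters, with *Ccna2* (1578 and 740 reads, −1.23), *Cdk6* (932 and 480, −1.09) and *Ccne1* (1419 and 768, −1.02) at least 2-fold lower. Centred on all regions these 3 were at −0.85, −0.71 and −0.64, and 0 of the 14 were past 2-fold. None was above 0 on the library totals and 5 were when centred, and the highest was *Cdc25c* at −0.22. CDK inhibitors and the RB and E2F families had a median of −0.49 over 17 promoters, with *E2f2* (163 and 71 reads, −1.32) and *E2f5* (2296 and 1013, −1.32) at least 2-fold lower and 0 at least 2-fold higher. Centred on all regions, *E2f2* and *E2f5* were at −0.95 and −0.94, and the one gene past 2-fold was *Cdkn1c*. Proliferation markers had a median of −0.43 over 10 promoters, with the replication helicase subunit *Mcm4* lowest (1790 and 743, −1.40) and the mitotic activator *Cdc20* highest (68 and 126, 0.74, 0.32 to 1.20), each past 2-fold when centred on all regions.

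**Figure D5:**
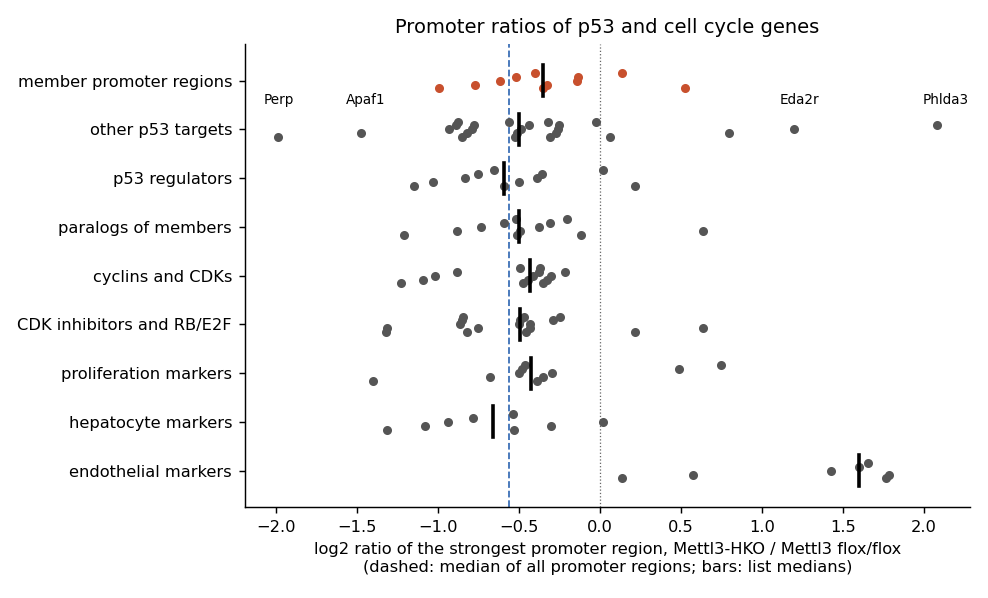
log2 ratio (horizontal axis) of the strongest promoter region of each listed gene, and of the 11 member promoter regions in the top row. Bars are list medians, and the dashed line is the median of all promoter regions, −0.56. The p53 and cell cycle lists centre near that line, *Perp*, *Apaf1*, *Eda2r* and *Phlda3* stand out among the p53 targets, and the endothelial markers lie to the right with a median of 1.60.

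Markers of liver cell types were described in the same way. Promoters of the 8 hepatocyte markers summed to 3664 reads in *Mettl3* flox/flox and 2707 in *Mettl3*-HKO, or 69.4 and 46.6 RPM. Their log2 ratios ran from −1.32 to 0.02 (median −0.66), beside a median of −0.56 for all promoter regions. Against promoters of like signal the hepatocyte median was −0.02. Promoters of 7 of 8 endothelial markers summed to 153 and 400 reads, or 2.90 and 6.89 RPM, and 5 of the 7 (*Stab2*, *Kdr*, *Lyve1*, *Cdh5* and *Tek*) were at least 2-fold higher; *Pecam1* had no promoter region. Macrophage markers had 2 of 8 promoters, *C1qa* with 8 and 40 reads and *Cd14* with 45 and 72. *Adgre1*, *Clec4f*, *Csf1r* and *Marco* had regions but none at the promoter, and none of the 8 lymphocyte markers had a promoter region. Cholangiocyte markers had 5 of 8 promoters with a median of −0.19, and stellate markers 2 of 8, *Reln* with 690 and 132 reads and *Col1a1* with 37 and 43. The part of these cell types in the member ratios, in particular in the *Btg2*, *Mdm2*, *Phlda3* and *Eda2r* regions that were higher in *Mettl3*-HKO, was not tested.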

How the data were processed

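ATAC-seq was analysed for 1 *Mettl3* flox/flox and 1 *Mettl3*-HKO liver library, each pooled from 4 mice at 8 weeks, and groups were taken from the sample labels. The authors trimmed the reads with skewer, aligned them with BWA to GRCm38, filtered out mitochondrial and improperly paired reads, and ran MACS2 on each library separately, duplicates retained. Counting on merged regions and any shift of read ends for the transposase cut are not given in the sources used here.

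The authors deposited for each region a raw read count per library, an RPM value (the count plus 1, scaled by a library total), a fold enrichment that is a ratio to the genome, and a log2 ratio of the libraries. The deposited RPM values served only to recover the library totals. The fold enrichment and the authors' log2 ratio, which is their own comparison, were not used.

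Of 74821 rows, 5272 repeated a region and were left out. Ratios were computed from the counts with 1 read added to each. Read density (RPKM) was computed without it. An exact binomial test (two-sided, conditional on the sum) set the counts of a region against the totals, with Benjamini-Hochberg adjustment over the 69549 regions and 0.05 as the limit. Such a test speaks of these libraries and their counting error, and whether the counts include the duplicates kept for peak calling is not given. The median promoter region had 370 and 265 reads. Mice could not be tested against each other with 1 library per group.

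The 10 genes and all lists were chosen with earlier results of these data known. Genes named from the lists are those at least 2-fold lower or higher at their strongest promoter region, the highest and lowest of each list, and every paralog with a promoter region. Markers of cell types and genes without a promoter region were named in addition. Motifs were searched in RefSeq promoter windows, with RefSeq gene positions of the same build. The alternatives were other scalings, 10 reads added, promoter windows of 500 and 2000 bp, a 1.5-fold threshold, a minimum of 20 reads in both libraries and the strongest region per gene. The 2-fold calls of the lists centred on all regions were added after seeing the data. The scripts were tested on simulated counts. R 4.3.3 with edgeR 4.0.16 (for TMM factors only) and Python 3.11.15 with scipy 1.17.1, pandas 2.3.3, numpy 2.4.6 and matplotlib 3.10.9 were used.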

Additional observations from a re-analysis of the deposited data

How the results depend on the processing

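No paired analysis was possible because each group had 1 library. Nor could a replicate be left out. The settings are, in order, centred on all regions, TMM, reads in regions and centred on regions of like signal. The member promoter median of −0.35 became 0.026, 0.040, 0.16 and 0.22, and −0.41 with the strongest region per gene. The median of the other 39 regions, −0.29, became 0.090, 0.10, 0.22 and 0.14.

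Of the 50 member regions, 15 reversed when centred on all regions, 15 with TMM, 19 with reads in regions and 21 against like signal. All 4 settings reversed the *Trp53* promoter (0.051, 0.065, 0.19, 0.20), *Ccng1* (0.24, 0.25, 0.37, 0.49), *Sesn2* at 275 bp (0.24, 0.25, 0.37, 0.51), 5153 bp (0.090, 0.10, 0.22, 0.32) and 3513 bp (0.28, 0.30, 0.42, 0.25), and *Ccnd1* at 3589 bp (0.031, 0.044, 0.17, 0.0017) and 1732 bp (0.30, 0.32, 0.44, 0.40). They also reversed *Bbc3* at 14035 bp (0.18, 0.19, 0.31, 0.41), 12600 bp (0.30, 0.31, 0.43, 0.53), 114 bp (0.026, 0.040, 0.16, 0.30), 3466 bp (0.098, 0.11, 0.23, 0.39), 4528 bp (0.22, 0.23, 0.35, 0.51), 11051 bp (0.19, 0.20, 0.32, 0.16) and 16773 bp (0.23, 0.24, 0.36, 0.20).

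The first 3 settings reversed *Gadd45a* at 50137 bp (0.24, 0.26, 0.38). The last 2 reversed *Trp53* at 1018 bp (0.044, 0.14), *Mdm2* at 7834 bp (0.050, 0.014) and 256 bp (0.11, 0.22), and *Bbc3* at 4054 bp (0.11, 0.21). Like signal alone reversed *Gadd45a* at 334 bp (0.13), *Bbc3* at 585 bp (0.037) and *Ccng1* at 20322 bp (−0.82). The first 3 scalings set these shifts by construction.

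Calls by the binomial test that ended with the direction kept numbered 5 when centred on all regions, 5 with TMM, 4 with reads in regions and 3 against like signal. The last were the *Gadd45b* promoter and *Ccnd1* at 86214 and 85762 bp. Calls gained in the kept direction numbered 4, 4, 5 and 4, among them *Mdm2* at 7086 bp and *Btg2* at 7296 and 13596 bp under each setting. Reversed regions that passed the threshold in the new direction numbered 4, 4, 7 and 11, among them *Ccng1* at 221 bp, *Sesn2* at 275 bp and *Bbc3* at 12600 and 4528 bp under each setting.

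No member promoter was 2-fold lower on library totals, 1 was with a window of 2000 bp (*Gadd45b* at 1100 bp) and 3 at 1.5-fold. With reads in regions 1 was 2-fold higher (*Mdm2* at 897 bp). Of the other regions, 13 were 2-fold lower, against 8 centred, 8 with TMM and 6 with reads in regions. Of these, 3 were 2-fold higher, against 5 under each of these scalings, and 1 under like signal or with at least 20 reads.

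Adding 10 reads changes the ratio and not the test. It kept the direction of 49 regions and turned *Ccng1* at 20322 bp to −0.0025. Which scaling is right cannot be told from 1 library per group.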
